A study of Mus musculus with 6 samples.

Results

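The 10 genes chosen to represent the let-7 and LIN28 axis were followed across arrays of mouse embryonic stem cells before and after Dicer deletion. They were the RNA-binding proteins Lin28a and Lin28b and the described let-7 targets Hmga2, Trim71, Igf2bp1, Igf2bp2, Igf2bp3, Myc, Mycn and Arid3b. A gene was taken where an array probe set carried its symbol and no other symbol in the platform annotation. This gave 9 of the 10 genes and 10 probe sets, out of 19938 genes measured in all. Igf2bp2 had no such probe set in the annotation and was not analysed here. Igf2bp1 had 2 probe sets and each of the others 1.

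The let-7 microRNAs are short RNAs that pair through their seed with messenger RNAs and lower their level and translation. In embryonic stem cells the LIN28 proteins bind let-7 precursors and block their processing, so mature let-7 stays low until the cells differentiate. LIN28A also recruits the terminal uridylyltransferases TUT4 and TUT7, which mark the precursor for decay by the exonuclease DIS3L2. Lin28a and Lin28b are themselves let-7 targets, so that LIN28 and let-7 hold each other down. The most abundant microRNAs of these cells belong to other families, and Dicer deletion removes the maturation step for all of them.

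Sites for the let-7 seed were not searched in the mRNAs of the measured genes. The family shares this seed, so mature forms are shown with the seed, bases 2 to 8, in capitals. They are RefSeq sequences of build GRCm38.p6, written 5′ to 3′. Of 1679 mature names in that table, 11 share this seed.
mmu-let-7a-5p: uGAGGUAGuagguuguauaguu
mmu-let-7d-5p: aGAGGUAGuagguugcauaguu
mmu-let-7e-5p: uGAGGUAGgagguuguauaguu
mmu-let-7g-5p: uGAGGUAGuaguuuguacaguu
mmu-miR-98-5p: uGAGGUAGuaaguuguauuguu
The family members differ outside the seed, let-7d also in its first base and let-7e just after the seed. A matching site in a target holds the complement CUACCUC.

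LIN28 proteins recognise the letters GGAG in the loop of let-7 precursors, so hairpins with and without them are shown. The letters GGAG, searched on the transcribed strand between the 2 mature arms, are in capitals. They occurred in 9 of 12 let-7 family hairpins, and in 8.22% of the 645 mouse hairpins with both arms placed. The 645 include these 12. The 5′ arm of Mirlet7a-2 was placed by sequence, which was done for no hairpin outside the family.
Mirlet7g: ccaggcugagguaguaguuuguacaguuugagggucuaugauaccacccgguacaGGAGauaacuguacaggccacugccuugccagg
Mirlet7e: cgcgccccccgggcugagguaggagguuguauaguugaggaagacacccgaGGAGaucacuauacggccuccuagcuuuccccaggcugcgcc
Mirlet7b: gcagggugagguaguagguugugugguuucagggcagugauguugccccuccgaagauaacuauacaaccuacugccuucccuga
In GRCm38.p6 these hairpins lie at chr9:106178840-106178927 on the plus strand, chr17:17830352-17830444 on the plus strand and chr15:85707319-85707403 on the plus strand. GGAG stands 3 bases before the 3′ arm in Mirlet7g and 4 bases before it in Mirlet7e. Mirlet7b, Mirlet7c-2 and Mir98 lacked it between the arms.

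The arrays came from embryonic stem cells labelled Dicer Fx/Fx, that is, with conditional Dicer alleles. Untreated cells without deletion (3 arrays) were compared with cells that had tamoxifen for 3 days and were collected 2 days later, on day 5 (3 arrays). Both groups carry the conditional alleles. The labels do not name the recombinase, the number of clones or the day on which untreated cells were collected. Arrays of wild-type E14 cells treated the same way were not used here, and an effect of tamoxifen alone cannot be told apart from one of Dicer loss. Whether replicates were separate cultures is not labelled; p-values therefore reflect only the scatter among these arrays, which may be technical.

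The values are log2 intensities, and a difference of 1 is a doubling. They carry no read depth; the number of arrays limits the precision. Within a group, arrays correlated at 0.996 to 0.998 across genes. The embryonic stem cell label was met by its markers: Pou5f1, Sox2, Nanog and 5 others had group means of 9.77 to 14.0. Of the 8, 0 were called different. At an unadjusted limma p under 0.05, 3 were lower, beside 13.1% of all genes. Once arrays were blocked by replicate number, 2 were lower, beside 9.54% of all genes. Tamoxifen arrays lay wholly below untreated ones for 4 of the 8 and wholly above for 1, beside 14.8% and 14.5% of all genes. The log2 of the summed marker signal ran from 16.064 to 16.149 in untreated and from 15.973 to 16.055 in tamoxifen arrays. Utf1 and Zfp42, with the smallest p-values, had log2 changes of -0.26 ± 0.07 and -0.19 ± 0.06 (limma adjusted p = 0.0574 and 0.0876). Dicer1, the targeted gene, read 11.43, 11.36 and 11.48 in untreated and 9.53, 9.48 and 9.69 in tamoxifen arrays. It fell by 1.85 ± 0.07 on the log2 scale (SE; limma adjusted p = 3.61e-05).

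Across the 9 measured genes the changes went in both directions. Hmga2 and Igf2bp3 rose, 0 genes fell and 7 were not called, at a limma p adjusted over all genes under 0.05. Over all genes, 7.78% were called in either direction, 3.79% higher and 3.99% lower. With 9 genes, 2 calls are a description of these genes and not a test of the group. Before adjustment, limma gave p under 0.05 to 4 of the 9: Hmga2 and Igf2bp3, higher, and Lin28a and Myc, lower. Of all genes, 24.5% passed that looser limit in either direction. The median change of the 9 was 0.10 on the log2 scale, beside 0.01 over all genes. The groups did not overlap for 3 genes, Hmga2 and Igf2bp3 above and Lin28a below, while of all genes 29.3% were free of overlap, 14.5% with tamoxifen wholly above and 14.8% wholly below.

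**Figure D1:**
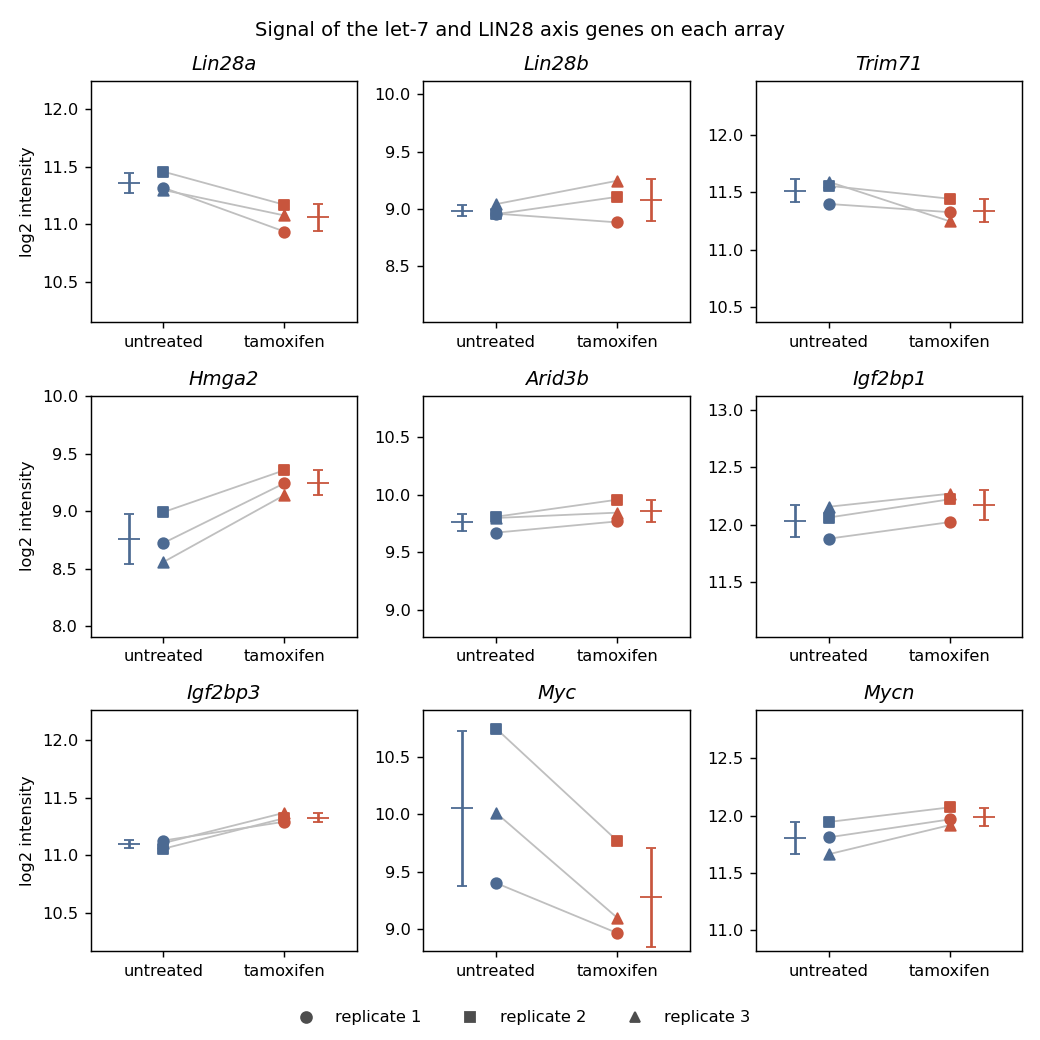
Log2 intensity (vertical axis, the same span in each panel) of the 9 measured genes in untreated (blue) and tamoxifen (red) arrays; marker shapes give the replicate number, grey lines join arrays of the same number, and bars beside the points are mean and SD (n = 3). Hmga2 and Igf2bp3 lie higher in all 3 tamoxifen arrays and Lin28a lower, while Myc spreads from 9.40 to 10.75 among untreated arrays alone.

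Replicate numbers mattered for reading these genes. Arrays with the same number deviated together from their group means, so the comparison was also made within replicate numbers, by adding the number as a block. With the block, 2 of the 9 genes were higher, Hmga2 and Igf2bp3, and 2 were lower, Lin28a and Myc. In that fit 17.4% of all genes were called, 7.87% higher and 9.54% lower.

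The LIN28 genes come first, as the blockers of let-7 maturation. Lin28a (probe set 10517159) read 11.32, 11.46 and 11.30 in untreated arrays and 10.94, 11.17 and 11.08 in tamoxifen arrays. All 3 tamoxifen values lay below all 3 untreated values. Its change was -0.30 ± 0.08 on the log2 scale (SE), with a 95% confidence interval from -0.48 to -0.12. The limma adjusted p was 0.0552 without the block, just past the threshold, and 0.0133 with it. Its differences between same-numbered arrays were -0.38, -0.29 and -0.22. The adjusted p was 0.0445 without the dimmest genes and 0.0372 with trend and robust variance estimation, but 0.0906 after cyclic loess and 0.136 with all probe sets tested. Leaving out single arrays gave changes of -0.35 to -0.24 and adjusted p-values of 0.0782 to 0.174, with 0 of 6 fits making the call.

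Lin28b (probe set 10368981) read 8.96, 8.95 and 9.04 in untreated and 8.88, 9.10 and 9.25 in tamoxifen arrays. Tamoxifen replicate 1 was the lowest of the 6 arrays and tamoxifen replicate 3 the highest, and the groups overlapped. Its change was 0.09 ± 0.09 (log2, interval -0.12 to 0.30, adjusted p = 0.586). It was the only one of the 9 genes whose differences between same-numbered arrays did not share a sign, at -0.08, 0.15 and 0.20.

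Trim71 encodes a ubiquitin ligase and mRNA repressor, the mammalian relative of the worm let-7 target lin-41. Probe set 10597427 read 11.40, 11.56 and 11.59 in untreated and 11.33, 11.45 and 11.25 in tamoxifen arrays. The highest tamoxifen array lay above the lowest untreated one. The change was -0.18 ± 0.08 on the log2 scale, with an interval from -0.35 to 0.00 and an adjusted p of 0.208, or 0.124 with the block. The pair differences were -0.07, -0.11 and -0.34.

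Hmga2, a chromatin protein that binds the minor groove of DNA and the classic let-7 target, had the largest rise. Probe set 10372796 read 8.72, 8.99 and 8.56 in untreated arrays and 9.24, 9.36 and 9.14 in tamoxifen arrays. The lowest tamoxifen array lay above the highest untreated array, untreated replicate 2. The log2 change was 0.49 ± 0.11 (SE), or 1.40-fold, with an interval from 0.24 to 0.74. Limma's adjusted p was 0.0329, and 0.0023 with the replicate block. Same-numbered arrays differed by 0.52, 0.37 and 0.58. Without 1 array the change ran from 0.39 to 0.61, and it was called in 1 of 6 such fits, the one without untreated replicate 2 (adjusted p = 0.0271).

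Arid3b is a DNA-binding protein with an AT-rich interaction domain. Probe set 10594001 read 9.67, 9.81 and 9.80 in untreated and 9.77, 9.96 and 9.84 in tamoxifen arrays, with overlap. Its change of 0.10 ± 0.07 (log2, interval -0.07 to 0.26) was not called, with an adjusted p of 0.457 without and 0.29 with the block.

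The IGF2BP proteins bind mRNAs and affect their stability, transport and translation. Igf2bp3 (probe set 10544610) read 11.13, 11.06 and 11.10 in untreated arrays and 11.29, 11.32 and 11.37 in tamoxifen arrays. The spread within each group was narrow, with SDs of 0.04 and 0.04, and the groups were apart. Igf2bp3 rose by 0.23 ± 0.06 on the log2 scale, or 1.17-fold (interval 0.10 to 0.37; limma adjusted p = 0.0487 without and 0.0293 with the block). This call lay close to the threshold: median centring gave an adjusted p of 0.0568, and it was lost in each of the 6 fits without 1 array, at 0.0662 to 0.157. The change itself stayed between 0.21 and 0.25 in those fits.

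Igf2bp1 had a brighter probe set, 10390211, and a dimmer one, 10390209. The brighter read 11.88, 12.06 and 12.16 in untreated and 12.02, 12.22 and 12.27 in tamoxifen arrays. The dimmer read 9.33, 9.58 and 9.80 in untreated and 9.57, 9.68 and 9.84 in tamoxifen arrays. Both rank the replicate numbers in the same order in both groups, with replicate 1 lowest and replicate 3 highest, and both groups overlap. The changes were 0.14 ± 0.09 for the brighter and 0.13 ± 0.12 for the dimmer probe set (log2, SE). Neither was called: the brighter had an adjusted p of 0.404, or 0.131 with the block, and an interval from -0.07 to 0.35.

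Myc and Mycn encode transcription factors that pair with MAX on E-box sequences and promote growth. Myc (probe set 10424400) read 9.40, 10.75 and 10.01 in untreated arrays and 8.97, 9.77 and 9.10 in tamoxifen arrays. Replicate 2 was highest and replicate 1 lowest in both groups, and the groups overlapped. The change was the largest of the 9 genes in size, at -0.78 on the log2 scale, yet its SE was 0.32 and its adjusted p 0.174 without the block. With the block the SE was 0.10 and the adjusted p 0.00224. The 3 same-numbered differences were -0.44, -0.98 and -0.91. Without untreated replicate 2 the change was -0.43, and without untreated replicate 1 it was -1.10.

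Mycn (probe set 10399421) read 11.81, 11.95 and 11.66 in untreated and 11.97, 12.07 and 11.92 in tamoxifen arrays. Only untreated replicate 2 reached the range of the tamoxifen arrays. Its change was 0.18 ± 0.08 (log2, interval -0.01 to 0.37), with an adjusted p of 0.231, or 0.0731 with the block. All 3 same-numbered differences were above 0, at 0.16, 0.13 and 0.25.

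**Figure D2:**
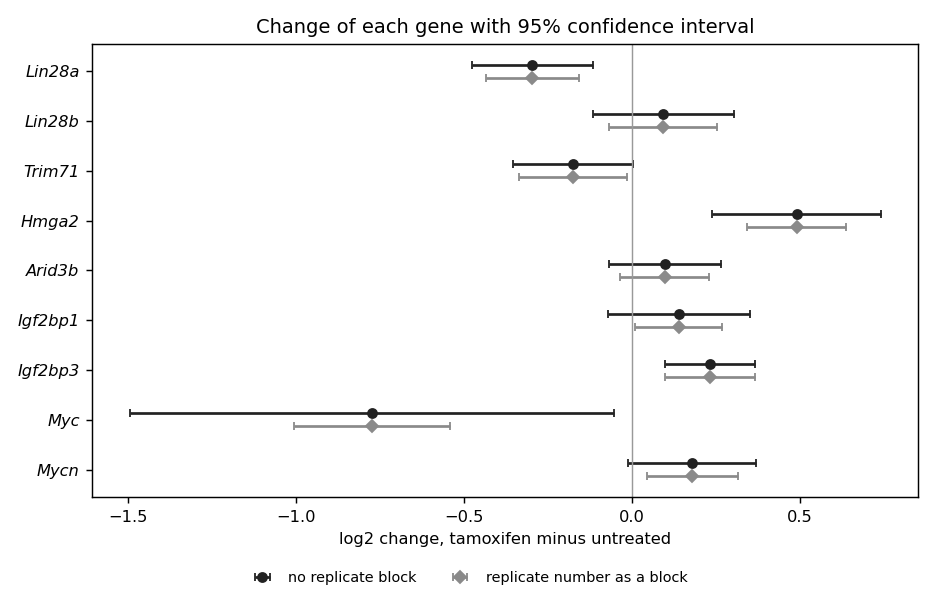
Log2 change from untreated to tamoxifen (horizontal axis) of the 9 measured genes with limma's 95% confidence interval, without a replicate block (black circles) and with the replicate number as a block (grey diamonds). The interval of Myc narrows from -1.50 to -0.05 without the block to -1.01 to -0.54 with it, while that of Igf2bp3 stays at 0.10 to 0.37.

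Paralogues of a family were set against each other by their difference within each array, which removes what the 2 genes share on an array. Of 5 planned pairs, 3 could be computed; the pairs with Igf2bp2 could not. The log2 change of Lin28a minus that of Lin28b was -0.39 ± 0.10 (SE), and the 2 groups of arrays did not overlap in it. The exact two-sided permutation p was 0.1, the smallest that 3 against 3 arrays allow, and 0.3 adjusted over the 3 pairs. The Myc change was below that of Mycn by 0.95 ± 0.41, at -0.59, -1.10 and -1.17 in the pairs of arrays (exact permutation p = 0.2, adjusted 0.3). For Igf2bp1 and Igf2bp3 the difference was -0.09 ± 0.11 (exact permutation p = 0.4). No pair could pass 0.05 in this design, so these are sizes rather than calls.

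**Figure D3:**
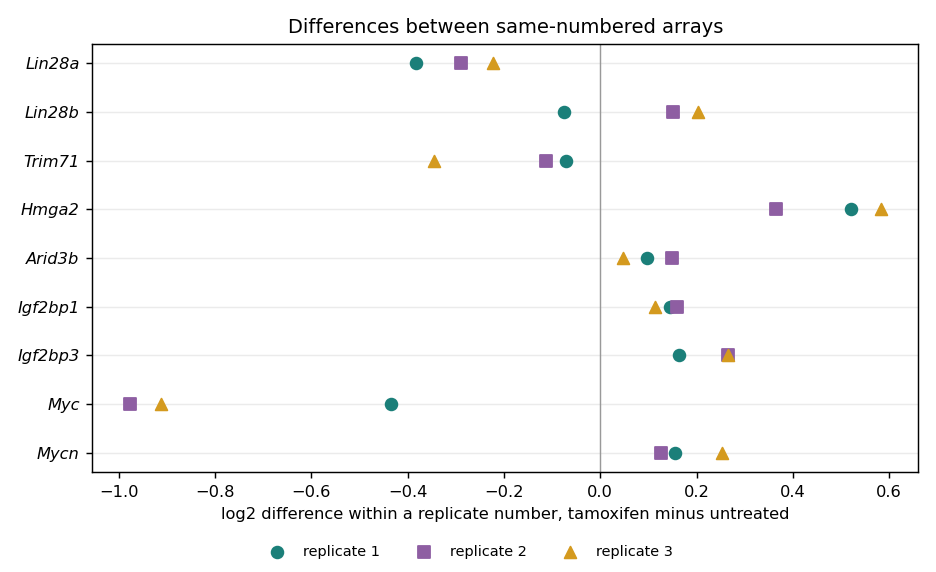
Log2 difference between the tamoxifen and the untreated array of the same replicate number (horizontal axis) for each of the 9 genes; circles, squares and triangles are replicates 1, 2 and 3. For 8 of the 9 genes the 3 points lie on the same side of 0, and Lin28b is the exception. The share of all genes with this trait was not computed, so the count only describes these 9.

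Around these genes, the machinery that makes, tags and degrades let-7 was read next. Of 14 measured genes of let-7 processing, 0 rose, 1 fell (Dicer1) and 13 were not called. Dicer1 is the targeted gene, so its call says nothing about the list. None of the other 13 was called, beside 7.78% of all genes. Drosha, which cuts the primary transcript, and its partner Dgcr8 changed by 0.03 ± 0.07 and 0.16 ± 0.15 on the log2 scale. Tut4, Tut7 and Dis3l2, the partners of LIN28A in precursor decay, measured -0.01 ± 0.10, -0.14 ± 0.08 and -0.09 ± 0.06 (limma adjusted p = 0.963, 0.3 and 0.426). With the block, Ago2, an Argonaute protein, was also called higher (adjusted p = 0.0211) and Prkra, a partner of Dicer, lower (0.0282). This made 3 of 14 with the targeted Dicer1 included, beside 17.4% of all genes. These genes of the list were named after their values were seen.

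Among the other described let-7 targets, calls went in both directions. The list was chosen with earlier results of these data known, so its counts are a description and not a test. Of 25 measured, 7 rose, 1 fell and 17 were not called, where 3.79% of all genes rose and 3.99% fell, and their median change was 0.15 beside 0.01 over all genes. Tgfbr1, a TGF-beta receptor, had the smallest p of the list, with a log2 rise of 0.53 ± 0.06 (limma adjusted p = 0.00308), a call that held in 6 of 6 fits without 1 array. Plagl2, a zinc-finger transcription factor, rose by 0.44 ± 0.07 (adjusted p = 0.0122), with 3 of 6 such fits keeping the call. The G1 cyclin Ccnd1 rose from 11.67 ± 0.09 to 12.23 ± 0.20 (log2, SD, n = 3; limma adjusted p = 0.0158). The other 4 rises, outside the naming rule, were those of the kinase Cdk6, the transcription factor E2f5, the insulin signalling adaptor Irs2 and the methylcytosine oxidase Tet3, at 0.29 to 0.49 on the log2 scale. E2f2, a transcription factor of S-phase entry, fell by 0.48 ± 0.10 (adjusted p = 0.0224). With the block 8 rose and 3 fell, beside 7.87% and 9.54% of all genes. The count of rises fell to 1 without tamoxifen replicate 2, 1 without tamoxifen replicate 3 and 2 without untreated replicate 2, and was 4 without untreated replicate 1 and 4 without untreated replicate 3.

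Genes linked to the products of the axis were called at shares to be read against the 7.78% of all genes. Calls with the block are to be read against 17.4% of all genes, 7.87% higher and 9.54% lower. Among 6 measured mRNAs described as repressed by TRIM71, 1 rose: Mbnl1, a splicing regulator, which gained 0.33 ± 0.08 in log2 signal (limma adjusted p = 0.0444). Leaving out single arrays kept this call in 1 of 6 fits. Egr1, an early-response transcription factor, was called as well with the block (adjusted p = 0.00601). None of 5 measured mRNAs described as bound by IGF2BP proteins was called by limma, 0 of them at an unadjusted p under 0.05. Btrc and Actb, with the smallest p-values there, changed by 0.09 ± 0.06 and 0.05 ± 0.06 in log2 signal. With the block 1 was called higher, the growth factor gene Igf2, with an adjusted p of 0.0145. The log2 change of Igf2 was 0.39 ± 0.49 without the block (limma adjusted p = 0.669), and its groups overlapped.

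In the MYC network, 1 of 11 measured partners and rivals of MYC proteins fell and 10 were not called, near the share over all genes. It was Mlxip, which pairs with MLX, with a log2 change of -0.35 ± 0.09 (limma adjusted p = 0.0438), a call kept in 1 of 6 fits without 1 array. Of 18 described MYC target genes, 0 rose and 1 fell: Fbl, the nucleolar methyltransferase fibrillarin, by 0.29 ± 0.07 (adjusted p = 0.0447). The median change of the 18 was -0.13 beside 0.01 over all genes. Before adjustment 7 of them had p under 0.05, all of these lower, beside 13.1% of all genes lower by that limit. With the block 0 rose and 4 fell, beside 9.54% of all genes lower in that fit.

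**Figure D4:**
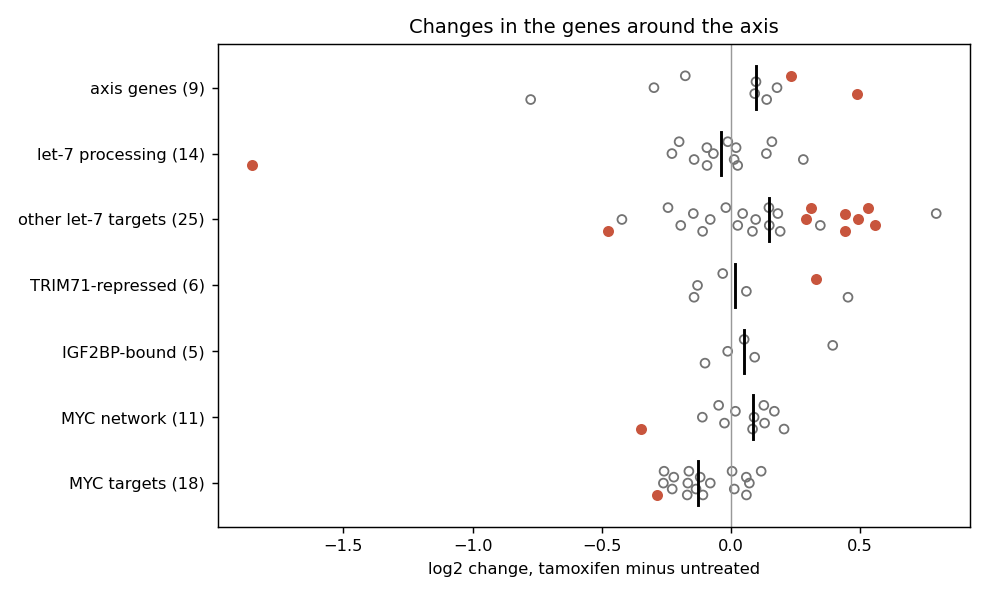
Log2 change (horizontal axis) of each measured gene in 7 lists, with the number measured in brackets; filled red points passed limma's adjusted p under 0.05, open points did not, and black bars are medians (vertical scatter has no meaning). The median is 0.15 for other let-7 targets and -0.13 for MYC targets, and Dicer1 is the point at -1.85.

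The let-7 genes have probe sets of their own on the array, which read primary transcript or hairpin RNA rather than the mature form. Of 10 single-symbol probe sets of let-7 family genes, 1 was called, near the 7.78% of all genes. Mirlet7e read 7.25, 7.08 and 6.93 in untreated and 7.46, 7.54 and 7.40 in tamoxifen arrays. Its rise was 0.38 ± 0.09 in log2 signal (adjusted p = 0.0364), and 1 of 6 fits that left out an array kept this call. The other 9 changed by -0.13 to 0.16 and had limma adjusted p-values of 0.454 to 0.974. Apart from Mirlet7d (8.12 untreated, 8.28 tamoxifen) and Mirlet7i (7.17 and 7.25), their group means were low, at 4.15 to 6.17. Array medians were 7.19 to 7.26 and the lowest value on any array was 3.18. At such low signal, a small difference says little about the transcripts. A further 2 let-7 probe sets carried several symbols and were not used.

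Markers of other cell types were read beside these results. Of 8 fibroblast, 6 primitive endoderm and 5 trophoblast markers, 0 were called by limma. Unadjusted p-values were under 0.05 for 1, 2 and 2 of them, and the block gave 1, 2 and 2 calls, where all genes had 24.5% and 17.4%. Among 5 neural markers, Neurod1, a proneural transcription factor, gained 0.91 ± 0.18 in log2 signal (adjusted p = 0.0194); the other 4 were not called, and with the block 3 of the 5 rose. The log2 of the summed neural signal ran from 10.67 to 10.91 in untreated and from 11.07 to 11.5 in tamoxifen arrays. Neurod1 had the largest change of the 5, then Tubb3 at 0.52 ± 0.19 and Sox1 at 0.29 ± 0.09 on the log2 scale. Pax6 and Nes had log2 changes of 0.08 and -0.01. At an unadjusted limma p under 0.05, 3 of the 5 were higher and 0 lower, beside 24.5% of all genes in either direction. In early mesoderm, 1 of 4 markers was called, beside 7.78% of all genes: Kdr, a VEGF receptor, rose by 0.26 ± 0.07 (limma adjusted p = 0.0468). Its signal was low, with means of 5.67 in untreated and 5.94 in tamoxifen arrays, and 0 of 6 fits without 1 array kept the call. Eomes, a T-box factor of the same list, had a log2 change of -0.57 ± 0.23 (adjusted p = 0.174), and the block called it lower (0.00745) beside Kdr higher. The log2 of the summed mesoderm signal ran from 9.28 to 9.56 in untreated and from 8.96 to 9.42 in tamoxifen arrays. The fibroblast sum ran from 9.94 to 10.18 in untreated and 10.03 to 10.14 in tamoxifen arrays. The part of these cell types in the changes of Hmga2 and Igf2bp3 was not tested, and in bulk RNA fewer cells of a type and less RNA per cell cannot be told apart.

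The genes nearest in pattern were found by the mean absolute difference between log2 profiles over the 6 arrays, each centred on its own mean. Nearest to Hmga2 were Jag1, a Notch ligand, at 0.052, Ssbp2 at 0.054 and Rai1 at 0.057. Nearest to Igf2bp3 were Nrl at 0.012, Otud1 at 0.015 and Tmed2 at 0.016. These are likenesses over 6 arrays in 2 groups, and many genes with a change of similar size come close.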

How the data were processed

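Total RNA of 6 samples was measured on Affymetrix arrays. Per the submitters' processing notes, the authors ran RMA in Affymetrix Expression Console 1.2; the deposited table holds 1 log2 intensity per probe set and array. Because RMA quantile-normalises arrays, a shift common to most transcripts cannot be seen. The range of the values, 3.18 to 14.6, gave the log2 scale. Of 35556 probe sets, 21789 had 1 symbol, and 21698 of these matched the RefSeq table of GRCm38.p6. The genome build of the array annotation is not given in the sources used here. The brightest probe set stood for a gene. The table held 0 columns of other samples.

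The comparison used limma 3.58.1 (R 4.3.3; lmFit, eBayes, two-sided, Benjamini-Hochberg over 19938 genes, no filter on dim genes). The code was tested on simulated data. Replicate numbers were taken to pair arrays, because arrays of numbers 1, 2 and 3 deviated together from their group means (correlations across genes of 0.356, 0.345 and 0.389). The naming rule covered the 10 axis genes, Dicer1 and the 3 genes closest in pattern to each called axis gene. From a list it took at most 3 called risers and 3 called fallers. A list without calls gave 2 genes, chosen by lowest p-value. Cdk6, E2f5, Irs2 and Tet3 are marked as outside this rule. Also outside it were Egr1, Igf2, Eomes, Pax6, Nes, Tubb3, Sox1, Pou5f1, Sox2, Nanog, the let-7 family genes and the processing genes other than Dicer1. Thy1, Col1a1, Pdgfra, Sox7, Tfap2c and Cdx2 met the rule but are not described in the Results. The members and lists were chosen with earlier results of these data known. Alternatives were averaging the probe sets of a gene, a filter on the dimmest 40% of genes, median centring, cyclic loess, trended and robust variance estimation, wider sets of probe sets tested, the replicate block and leaving out each array.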

Additional observations from a re-analysis of the deposited data

How the results depend on the processing

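All 9 measured genes kept the direction of their change in the 14 alternative settings, in 126 values. Of these settings, the filter on dim genes, variance estimation, wider sets of probe sets and the block leave a log2 change as it is. Averaging could alter only Igf2bp1, so direction was put to the test by median centring, cyclic loess and leaving out arrays. The calls moved more. The number of axis genes called higher was 2; it was 1 with median centring, 0 with all probe sets tested, and 0 to 1 when 1 array was left out. The number called lower was 0; it was 1 without the dimmest 40% of genes, 1 with trend and robust variance estimation, and 2 with the replicate block. Over all genes 1552 were called, 3472 with the replicate block, and 355 to 1580 when 1 array was left out. With all probe sets tested, 336 of the 35556 probe sets were called, a count of probe sets and not of genes. The settings for the other let-7 targets were added after the data were seen: their 7 rises were 1 with all probe sets tested and 1 to 7 without 1 array. Their 1 fall was 2 without the dimmest 40% of genes, 2 with median centring, 2 with trend and robust estimation, 0 with all probe sets tested, 3 with the replicate block, and 0 to 2 without 1 array. The paralogue differences kept their sign in every fit without 1 array. The replicate block leaves these differences as they are. With it an exact test of 3 pairs gave p = 0.25, the smallest it can give. The cause of these shifts was not tested. Median centring and cyclic loess are scalings of the deposited values, so they could not restore what quantile normalisation removed.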
